A study of Homo sapiens with 54 samples.

Results

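The insulin-like growth factor (IGF) binding proteins IGFBP2, IGFBP3, IGFBP4, IGFBP5, IGFBP6 and IGFBP7, the receptors IGF1R and IGF2R and the ligand IGF2 were followed across 6 ovarian cancer cell lines before and during carboplatin. They are the rows of the deposited expression table that carry these symbols, 9 of 25435 genes. The list was selected on measured values in part, since the untreated difference of IGFBP3 and IGFBP5 between PEO4 and PEO1 was already known, so differences between untreated lines are given as a description with no test.

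The lines are established cultures of high grade serous ovarian cancer that form 3 pairs, each pair from a single patient. The platinum-sensitive lines are PEA1, PEO1 and PEO14 and their platinum-resistant partners are PEA2, PEO4 and PEO23, so each resistant state is represented by 1 line per patient. Total RNA was sequenced from untreated cells and from cells kept for 8 h or 24 h in 80 µM carboplatin, a platinum compound that damages DNA by crosslinking it. Each of the 18 groups had 3 cultures, prepared on different days. All groups, the untreated ones included, grew in RPMI medium with fetal bovine serum, and the labels name no engineered change. Per the labels all PEA1 cultures were at higher passage numbers than the PEA2 cultures, so passage and resistance cannot be told apart in that pair. At each time the PEO1 cultures were likewise at higher passage numbers than the PEO4 cultures, so the same holds there. Untreated and 8 h cultures of a line overlapped in passage in 1 of 18 cases, so passage and treatment cannot be told apart either.

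IGF1 and IGF2 are secreted peptides that signal through IGF1R, a receptor tyrosine kinase, to the insulin receptor substrates and the PI3K and RAS pathways. IGF2R carries mannose 6-phosphate-tagged enzymes to lysosomes and also takes up IGF2 for degradation, so it clears the ligand rather than signalling like IGF1R. The high-affinity binding proteins hold most IGF outside cells, and proteases such as PAPPA cut them and set the ligand free. IGFBP7 binds IGFs only weakly and is often placed in a related group. IGF2 and IGF signalling have long been studied in ovarian cancer, where autocrine growth signals are common.

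The values were TPM, a share of all transcripts adjusted for gene length, and the depth of each library is unknown. Of 54 libraries, 12 listed few genes, 2678 to 11754 above 0 TPM, and were set aside. The other 42 listed 12877 to 17133. Set aside were replicates 2 and 3 of untreated PEA1, replicate 2 of PEA2 at 8 h, replicate 3 of PEO1 and of PEO4 at 8 h, replicates 1 and 3 of PEO4 at 24 h, replicates 2 and 3 of PEO14 at 24 h, and all 3 untreated PEO23 libraries. A single library therefore stood for untreated PEA1, for PEO4 at 24 h and for PEO14 at 24 h. Its spread was assumed to equal that of the other groups. PEO23 had no untreated level. Levels are rescaled TPM. Differences were taken after adding 1 and converting to log2, so those of genes with low values are understated. They are given ± the standard error from limma with Benjamini-Hochberg adjusted p-values over 18013 tested genes, and a gene is called where the adjusted p is under 0.05. All 9 genes passed the filter on low values. Replicates measure the spread between cultures of 1 line.

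Of 10 epithelial and serous ovarian markers, 6 to 10 had a median of at least 1 TPM in each line, and MUC1 was listed at 0 in the 6 kept PEO4 libraries. The 9 fibroblast markers summed to 1.1 to 111 TPM per library, with DCN at 0 in every kept library of the lines other than PEO23. The 7 endothelial markers summed to 129 to 282 TPM in PEA2 and to 0 to 103.4 TPM in the other lines. The 7 leukocyte markers summed to 2.72 to 144 TPM, with CD3E at 0 in all kept libraries. A median of at least 1 TPM was reached by 1 to 3 fibroblast, 0 to 3 endothelial and 1 to 3 leukocyte markers per line. The part of such transcripts in the results below was not tested.

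The promoters of 4 genes are shown because the results turn on them: IGFBP3 and IGFBP5 differed most between PEO4 and PEO1, and IGF1R and IGF2R were called lower at 24 h of carboplatin in 4 and 5 of 5 lines. Each is the 250 bases upstream of the start in RefSeq (GRCh38.p14), written 5′ to 3′ along the gene's strand, at chr7:45921273-45921522 (minus strand) for IGFBP3, chr2:216695550-216695799 (minus) for IGFBP5, chr15:98648289-98648538 (plus) for IGF1R and chr6:159968832-159969081 (plus) for IGF2R. Capitals mark GGGCGG on either strand, the core letters of a GC box.
IGFBP3: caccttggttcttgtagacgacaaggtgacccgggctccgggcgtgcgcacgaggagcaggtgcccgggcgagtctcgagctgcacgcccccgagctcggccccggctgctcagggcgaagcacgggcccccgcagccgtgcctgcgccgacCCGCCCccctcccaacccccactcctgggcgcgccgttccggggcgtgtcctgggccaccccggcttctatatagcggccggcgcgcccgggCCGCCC
IGFBP5: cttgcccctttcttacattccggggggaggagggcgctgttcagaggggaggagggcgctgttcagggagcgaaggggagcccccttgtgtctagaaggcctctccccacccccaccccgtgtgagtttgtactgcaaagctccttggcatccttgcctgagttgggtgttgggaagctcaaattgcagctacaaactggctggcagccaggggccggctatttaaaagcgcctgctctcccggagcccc
IGF1R: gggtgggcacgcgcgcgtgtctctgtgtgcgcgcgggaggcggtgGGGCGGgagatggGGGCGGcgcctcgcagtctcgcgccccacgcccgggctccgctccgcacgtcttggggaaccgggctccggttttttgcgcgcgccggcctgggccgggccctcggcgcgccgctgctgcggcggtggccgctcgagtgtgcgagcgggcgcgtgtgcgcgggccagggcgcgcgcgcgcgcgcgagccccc
IGF2R: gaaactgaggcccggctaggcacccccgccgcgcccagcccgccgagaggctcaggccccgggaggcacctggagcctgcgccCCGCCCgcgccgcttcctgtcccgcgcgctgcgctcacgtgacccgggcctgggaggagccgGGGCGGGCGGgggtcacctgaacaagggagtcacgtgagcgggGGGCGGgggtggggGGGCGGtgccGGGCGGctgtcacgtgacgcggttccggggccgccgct
The IGF2R window held 6 matches to GGGCGG, those of IGFBP3 and IGF1R held 2 each and that of IGFBP5 held 0. The share of all 35116 RefSeq promoters with a match was 42.6%. None of these windows held TATAAA on either strand, which 10.7% of promoters did, and the window of IGFBP4 (chromosome 17, 40443200 to 40443449) held 1. GC content was 81.2% for IGF1R, 79.2% for IGF2R, 76% for IGFBP3 and 61.2% for IGFBP5, against a median of 58% over all promoters. These windows and letters were chosen after the values were seen and say nothing of which factors bind. RefSeq entries were matched for 7 of the 9 genes, all except IGF2 and IGFBP7.

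The lines carried different sets of these genes. The ligand IGF2 reached 1185, 1740.4 and 864 TPM in untreated PEO14, the highest level of any of the 9 genes in a kept untreated library. It stood at 27.6 in untreated PEA1, at 43.9, 40.5 and 5.71 in PEO4, at 0, 0 and 0.222 in PEA2 and at 0 in all 3 PEO1 libraries. PEO23 had a high IGF2 level under the drug, 661, 611 and 716 at 8 h and 709.8, 526 and 1110.2 at 24 h. Its 3 untreated libraries, which were set aside, listed 7419, 3286 and 487 deposited TPM. These are not on the rescaled scale of the treated values, so no change under the drug is read for PEO23. IGF2 was thus abundant in both lines of the PEO14 and PEO23 pair and near 0 in PEA2 and PEO1.

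**Figure D1:**
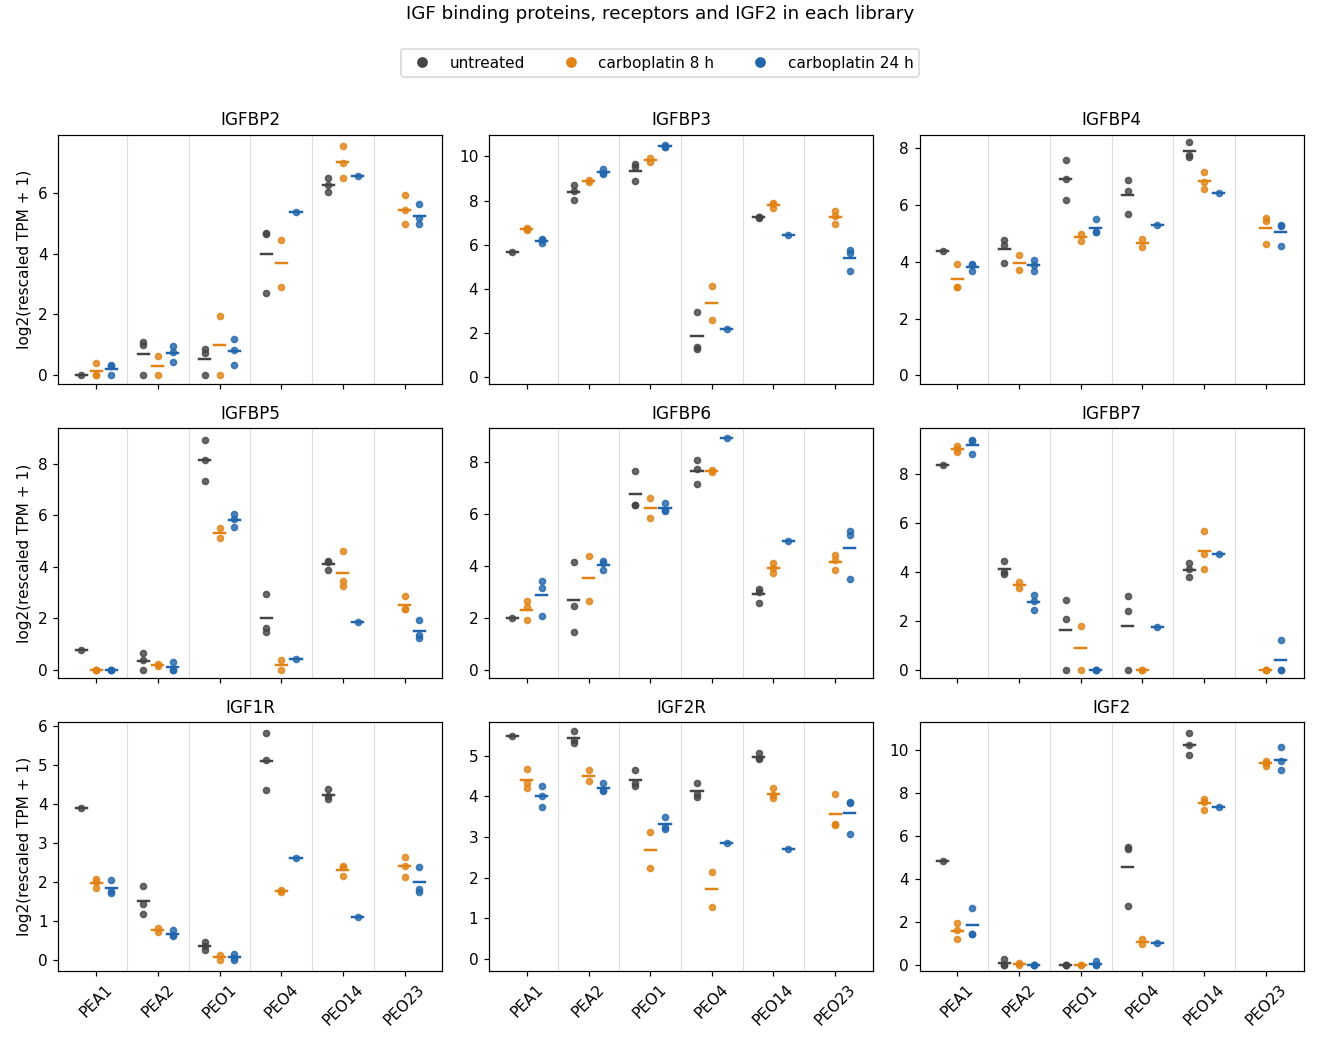
Each panel plots log2(rescaled TPM + 1) of 1 gene in every kept library of the 6 lines, with points coloured by untreated, 8 h and 24 h of carboplatin and a bar at the group mean. IGF2 separates PEO14 and PEO23 from PEA2 and PEO1, IGFBP5 stands highest in PEO1, IGFBP7 in PEA1, and IGF1R and IGF2R lie lower in treated than in untreated libraries in most lines.

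The receptors were spread differently. IGF1R was highest in untreated PEO4, at 33.8, 54.9 and 19.2 TPM, followed by PEO14 at 19.9, 17.3 and 16.3 and PEA1 at 13.8. PEO4 and PEO14 overlapped, since the lowest PEO4 library lay within the range of PEO14. PEA2 stood at 1.67, 2.71 and 1.25 and PEO1 at 0.275, 0.178 and 0.359, below all other untreated lines and without overlap between them. IGF2R was more even. It ranged from 15.7, 19 and 14.8 in PEO4 to 39, 48 and 41.1 in PEA2, with 18.1, 24.1 and 19.1 in PEO1, 30, 32.3 and 29.3 in PEO14 and 44.0 in the PEA1 library. The PEA1 value lay inside the range of PEA2, and PEO4 and PEO1 overlapped.

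Among the binding proteins IGFBP3, the main carrier of IGFs in blood, was the most abundant overall. Untreated PEO1 held 468, 731 and 815 TPM, PEA2 345, 422 and 263, PEO14 152, 146 and 153 and PEA1 50.6. PEO4 held 6.71, 1.62 and 1.44. The order PEO1, PEA2, PEO14, PEA1, PEO4 had no overlap between neighbours. IGFBP5, which binds extracellular matrix as well as IGFs, was highest in PEO1, at 283, 490.0 and 159.6 TPM. PEO14 held 17.7, 13.7 and 17.4 and PEO4 2.06, 6.62 and 1.75, and in PEA1 and PEA2 no kept library exceeded 0.686. IGFBP2, by contrast, was high in PEO14 (89.5, 64.8 and 75.3 TPM untreated) and PEO4 (23.9, 24.5 and 5.47) and at most 1.11 in untreated PEA1, PEA2 and PEO1. IGFBP2 and IGFBP5 are neighbouring coding genes on chromosome 2, yet PEO1 held most IGFBP5 with almost no IGFBP2.

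IGFBP4 was present in every line, highest in untreated PEO14 at 298, 206 and 213 TPM and lowest in the PEA pair, at 26.3, 14.6 and 23.2 in PEA2 and 19.9 in PEA1. PEO1 (121, 189.7 and 72.2) and PEO4 (89, 116 and 50.8) overlapped between these levels. IGFBP6, which prefers IGF2 over IGF1, was highest in PEO4 (143, 274 and 215) and PEO1 (81.7, 200.1 and 80.9), and the ranges of these lines overlapped. The other untreated libraries held 1.72 to 16.6 TPM of IGFBP6. IGFBP7 was highest in PEA1, with 324 TPM in the untreated library. PEA2 held 20.9, 15 and 14 and PEO14 16.6, 19.4 and 13, ranges that overlapped, and PEO1 and PEO4 held at most 7.09. IGFBP7 is made by endothelial cells and fibroblasts in many tissues, and in PEA1 the summed markers were 0 to 2.55 TPM for endothelium and 5.17 to 44.8 TPM for fibroblasts.

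As a description of the untreated pairs, the log2 difference between PEO4 and PEO1 was -7.48 for IGFBP3, -6.14 for IGFBP5, 3.47 for IGFBP2, 4.75 for IGF1R and 4.54 for IGF2. In the PEA pair, with 1 PEA1 library, PEA2 differed from PEA1 by 2.71 in IGFBP3, -4.23 in IGFBP7, -2.40 in IGF1R and -4.74 in IGF2. The sign of the difference was opposite in these pairs for IGFBP3, IGF1R and IGF2. It was also opposite for IGFBP7, at 0.148 between PEO4 and PEO1. The same held for IGFBP4, at 0.063 in the PEA pair and -0.54 between PEO4 and PEO1. The library of untreated PEA1 set aside as replicate 2 listed 33.3 deposited TPM of IGF1R, 195 of IGF2 and 702 of IGFBP7, whereas replicate 3 listed 0, 2.32 and 0.

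Some of these genes share sequence space with others. IGF2 overlaps INS-IGF2 on the same strand, listed at up to 18.4 TPM in PEO14 and 5.17 in PEO23, and IGF2-AS on the opposite strand, at up to 15.7 TPM in PEO14. IGFBP7 overlaps POLR2B and IGFBP7-AS1 on the opposite strand, and IGFBP7-AS1 stood at 7.06 to 23.8 TPM in PEA1 against at most 1.63 in the other lines. IGF2R overlaps the antisense AIRN. The kit keeps strand, but how strand was treated in the counting is not stated in the labels, and the values of IGF2, IGFBP7 and IGF2R are uncertain on this point.

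The first tested question was whether resistant and sensitive lines still differed in these genes while under the drug, in libraries other than those of the untreated contrast. After 8 h, 14 differences were called over the 3 pairs. In the PEA pair 4 of 9 genes were called, where 16.2% of all tested genes were. IGFBP3 was higher in PEA2, at 492 and 463 TPM against 104.3, 107 and 99.4 in PEA1 (2.19 ± 0.37, adjusted p = 4.77e-05). IGFBP7 was lower, at 11.1 and 9.23 against 565, 517 and 474 (-5.54 ± 0.65, adjusted p = 1.29e-07). The ranges of both genes were far apart. IGF1R was lower in PEA2 (0.643 and 0.751 against 2.95, 2.56 and 3.20, difference -1.20 ± 0.30, adjusted p = 0.0045). IGF2 was lower as well (0 and 0.0760 against 2.04, 1.31 and 2.91, difference -1.54 ± 0.49, adjusted p = 0.0262), both at low levels. PEA2 under drug therefore held more of the carrier IGFBP3 and less of IGFBP7, IGF1R and IGF2 than PEA1.

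In PEO4 against PEO1 at 8 h, 5 of 9 genes were called, where 9.91% of all genes were. IGFBP3 stood at 16.3 and 5.13 TPM in PEO4 and 959 and 866 in PEO1 (-6.47 ± 0.41, adjusted p = 1.31e-12). IGFBP5 stood at 0.298 and 0 and 44.7 and 34.1 (-5.13 ± 0.45, adjusted p = 1.49e-09). Both are counted among the 5, and they are the genes for which the untreated contrast of these lines was already known. Their calls in treated cultures of the same lines are therefore not read as support. With these 2 groups fitted alone, 2 libraries against 2, neither passed (adjusted p = 0.142 and 0.101). IGFBP2 was higher in PEO4, at 21.1 and 6.48 against 2.84 and 0 (2.71 ± 0.59, adjusted p = 0.00194). IGF1R was higher in PEO4, at 2.30 and 2.47 against 0 and 0.0781 (1.70 ± 0.33, adjusted p = 0.000546), the opposite sign to the PEA pair. IGF2R was lower, at 3.41 and 1.43 against 7.66 and 3.71 (-0.96 ± 0.31, adjusted p = 0.0472), a call lost with a term for the replicate number (replicate block, adjusted p = 0.0534) and when any of the 3 replicate numbers was left out.

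In PEO23 against PEO14 at 8 h, 5 of 9 genes were called, where 14.8% of all genes were. IGFBP7 was listed at 0 in all 3 PEO23 libraries and at 25.7, 16.3 and 50.6 TPM in PEO14 (adjusted p = 5.49e-07). IGFBP4 was lower in PEO23, at 41.9, 23.7 and 45.2 against 111, 94.6 and 143 (-1.66 ± 0.33, adjusted p = 0.000563). IGFBP2 stood at 60.1, 30.2 and 42.1 against 128, 89.3 and 187 (-1.58 ± 0.48, adjusted p = 0.0238). IGFBP5 stood at 4.10, 6.37 and 4.14 against 8.46, 9.93 and 23.6 (-1.24 ± 0.37, adjusted p = 0.0202). The ranges of all 4 binding proteins were separate, with PEO23 the lower line. IGF2, in contrast, was higher in PEO23 at this time, at 661, 611 and 716 against 147, 209.8 and 191 (1.86 ± 0.43, adjusted p = 0.0031), but the call was lost without rescaling (adjusted p = 0.176).

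With all 54 libraries in the model 5 of the 14 differences at 8 h held, those of IGFBP7 in the PEA and the PEO14 and PEO23 pairs and of IGFBP2, IGFBP3 and IGFBP5 between PEO4 and PEO1. Of the others, IGFBP3 in the PEA pair had adjusted p = 0.442 and IGF1R between PEO4 and PEO1 0.223. Leaving out replicate 1 of every group ended the calls of IGF1R (adjusted p = 0.259) and IGF2 (0.367) in the PEA pair, of IGF1R (0.142) between PEO4 and PEO1, and of IGFBP2 (0.0635), IGFBP5 (0.157) and IGF2 (0.148) between PEO23 and PEO14. Leaving out replicate 2 ended those of IGF2 in the PEA pair (adjusted p = 0.0665) and of IGFBP2 (0.0683) and IGF1R (0.0629) between PEO4 and PEO1. Leaving out replicate 3 ended those of IGFBP2 (0.233) and IGFBP5 (0.339) between PEO23 and PEO14. With the compared groups alone all 5 calls between PEO4 and PEO1 and those of IGFBP2, IGFBP4 and IGFBP5 between PEO23 and PEO14 were lost, and a pseudocount of 0.1 ended those of IGFBP2 and IGFBP5 between PEO23 and PEO14. Without rescaling IGFBP2 and IGF1R between PEO4 and PEO1 lost their calls too (adjusted p = 0.248 and 0.295), and the calls split into 1 higher and 9 lower in the resistant lines against 4 and 10 with it.

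After 24 h, 11 differences between lines were called. PEA2 and PEA1 differed in the same 4 genes as at 8 h, in cultures that shared their passage with those of 8 h. Of all genes 18.7% were called. IGFBP3 stood at 685, 599 and 588 TPM in PEA2 and 73.8, 76.6 and 66.1 in PEA1 (3.09 ± 0.33, adjusted p = 1.59e-08). IGFBP7 stood at 7.48, 4.50 and 6.10 and 671, 453 and 642 (-6.39 ± 0.59, adjusted p = 6.05e-10), the widest gap of the 9 genes in this pair. IGF1R was lower in PEA2 (0.541, 0.677 and 0.514 against 2.35, 2.25 and 3.14, difference -1.18 ± 0.27, adjusted p = 0.00158). IGF2 stood at 1.70, 1.74 and 5.33 in PEA1 and was listed at 0 in each of the 3 PEA2 libraries (adjusted p = 0.00207). None of these 4 ranges overlapped.

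PEO4 was represented by its replicate 2 alone at 24 h, and 5 of 9 genes were called against PEO1, where 21.6% of all genes were. IGFBP3 was 3.54 TPM there against 1468, 1389 and 1376 in PEO1 (-8.28 ± 0.47, adjusted p = 1.75e-13). The 2 PEO4 libraries set aside listed 2.87 and 5.51 deposited TPM. IGFBP5 was 0.358 against 45.8, 65.2 and 57.6 (-5.38 ± 0.52, adjusted p = 1.02e-08). IGFBP2 was 40.3 against 0.263, 1.29 and 0.760 (4.59 ± 0.68, adjusted p = 1.43e-05), and IGFBP6 was 489 against 67.7, 71.3 and 86.2 (2.69 ± 0.73, adjusted p = 0.0083). IGF1R was 5.13 against 0.0315, 0.109 and 0 (2.55 ± 0.38, adjusted p = 1.56e-05). IGFBP3 and IGFBP5 were thus higher in PEO1 and IGFBP2 and IGF1R in the PEO4 library, while IGFBP6 was abundant in both lines and higher in that library. The difference of IGFBP3 and IGFBP5 between these lines was already known, so their calls are not read as support here either.

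Between PEO23 and the single PEO14 library at 24 h, 2 of 9 genes were called, where 5.18% of all genes were. IGFBP7 stood at 0, 1.38 and 0 TPM in PEO23 and 25.9 in PEO14 (-4.33 ± 0.83, adjusted p = 0.00123). IGF2 stood at 709.8, 526 and 1110.2 and 159 (2.23 ± 0.61, adjusted p = 0.028). With all 54 libraries 6 of the 11 differences held, those of IGFBP7 in both pairs and of IGFBP2, IGFBP3, IGFBP5 and IGFBP6 between PEO4 and PEO1, while IGFBP3 in the PEA pair had adjusted p = 0.0923. Leaving out replicate 1 ended the calls of IGF1R (adjusted p = 0.0958) and IGF2 (0.0593) in the PEA pair and of IGFBP6 between PEO4 and PEO1 (0.0676), and leaving out replicate 2 ended that of IGF2 between PEO23 and PEO14 (0.0581), which was also lost without rescaling (0.0883). With the compared groups alone, or for IGF2 also with a pseudocount of 0.1, IGFBP7 and IGF2 between PEO23 and PEO14 were not called.

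**Figure D2:**
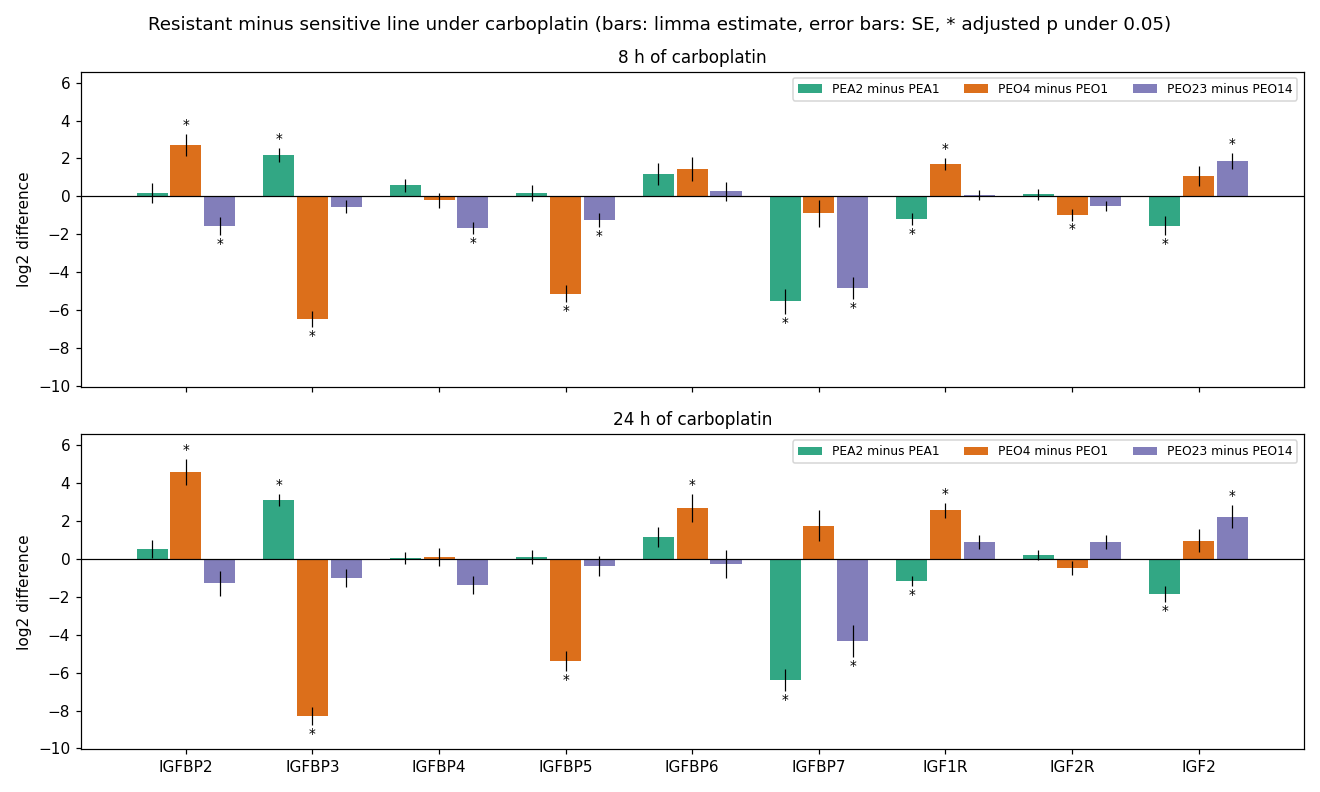
Bars give the log2 difference of each gene between the resistant and the sensitive line of a pair after 8 h (top) and 24 h (bottom) of carboplatin, with error bars for the standard error and a star where the adjusted p is under 0.05. IGFBP3 is positive in the PEA pair and strongly negative in PEO4 minus PEO1 at both times, and IGFBP7 is negative in PEA2 minus PEA1 and in PEO23 minus PEO14; bars against a group listed at 0 depend on the added 1.

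IGFBP7 was called lower in the resistant line in the PEA and the PEO14 and PEO23 pairs at both times. The 8 h and 24 h cultures of a number shared their passage, so the times are not separate repeats, and PEO14 was a single library at 24 h. In the third pair neither line held much IGFBP7, with 0 and 2.46 TPM in PEO1 and 0 and 0 in PEO4 at 8 h (-0.90 ± 0.72, adjusted p = 0.549). IGFBP4 and IGF2R were called in 1 pair each at 8 h and in 0 pairs at 24 h. At 24 h IGFBP4 stood at 13.8, 15.9 and 11.7 in PEA2 and 13.9, 11.8 and 14.2 in PEA1 (0.04 ± 0.33, adjusted p = 1). IGF2R stood at 16.5, 19.1 and 16.9 and 15, 18.2 and 12.3 in the same lines (0.21 ± 0.26, adjusted p = 0.727), ranges that overlapped.

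The next question was what carboplatin did to these genes within each line. Untreated libraries served both the 8 h and the 24 h comparison, so these share their controls, and those of PEO1 and PEO4 were part of the contrast known beforehand. Untreated values of IGFBP3 and IGFBP5 in these 2 lines helped to choose the genes, so their changes there are given with no test. Most calls were falls, above all of the receptors IGF1R and IGF2R, the ligand IGF2 and the binding protein IGFBP4. The median change of all genes was -0.24 to 0 at 8 h and -0.27 to 0 at 24 h with rescaling, and -1.14 to -0.31 and -1.12 to -0.34 without it.

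Read against all genes, the share of members called lower differed by line. At 8 h, 2 of 9 fell in PEA1 and 1 of 9 in PEA2, where 5.29% and 10.7% of all genes were called lower. In PEO1 3 of 9 fell (24.5% of all genes), in PEO4 6 of 9 (32%) and in PEO14 4 of 9 (21.1%). At 24 h, 3 of 9 fell in PEA1 (5.22%), 2 in PEA2 (12.5%), 4 in PEO1 (22.9%), 4 in PEO4 (12.7%) and 5 in PEO14 (22.7%). The calls higher were 1 in PEO4 at 8 h (21.6% of all genes), 1 in PEO1 at 24 h (15.7%) and 1 in PEO14 at 24 h (13.5%). Over the 5 lines that makes 1 call higher and 16 lower at 8 h and 2 higher and 18 lower at 24 h, including at each time 3 of IGFBP3 or IGFBP5 in PEO1 or PEO4, which rest on the untreated values that helped to choose those genes. The median change of the 9 genes at 24 h was -0.55 in PEA1, -0.24 in PEA2, -0.55 in PEO1, -1.05 in PEO4 and -1.46 in PEO14.

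IGF1R, the signalling receptor, fell at 8 h in PEA1, PEO4 and PEO14. In PEO4 it went from 33.8, 54.9 and 19.2 TPM to 2.30 and 2.47 (-3.33 ± 0.30, adjusted p = 8.21e-10). In PEO14 it went from 19.9, 17.3 and 16.3 to 3.42, 4.18 and 4.26 (-1.93 ± 0.27, adjusted p = 2.67e-06). In PEA1 it went from 13.8 to 2.95, 2.56 and 3.20 (-1.93 ± 0.38, adjusted p = 0.0015). Treated and untreated ranges were apart in all 3 lines, though untreated PEA1 rests on 1 kept library. Its set-aside replicates 2 and 3, given above for the untreated pairs, lay above and below that library. At 24 h the single PEO4 library held 5.13 (-2.47 ± 0.38, adjusted p = 3.98e-05) and the single PEO14 library 1.13 (-3.14 ± 0.38, adjusted p = 5.61e-07). PEA1 held 2.35, 2.25 and 3.14 (-2.06 ± 0.38, adjusted p = 0.000832) and PEA2 0.541, 0.677 and 0.514 (-0.84 ± 0.27, adjusted p = 0.0301), the latter a call lost with the replicate block (adjusted p = 0.127). PEO1 already stood under 0.36 TPM without drug and was not called at 8 h (-0.29 ± 0.30, adjusted p = 0.484) or 24 h (-0.28 ± 0.27, adjusted p = 0.458).

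IGF2R, the clearing receptor, was called lower at 24 h in all 5 lines, but the call in PEO4 was lost with the replicate block (adjusted p = 0.0507) and without rescaling (0.0575), and that in PEA1 without rescaling (0.0528). It went from 39, 48 and 41.1 to 16.5, 19.1 and 16.9 TPM in PEA2 (-1.24 ± 0.26, adjusted p = 0.000898) and from 18.1, 24.1 and 19.1 to 8.20, 8.50 and 10.2 in PEO1 (-1.10 ± 0.26, adjusted p = 0.00112). In PEA1 it went from 44.0 to 15, 18.2 and 12.3 (-1.49 ± 0.36, adjusted p = 0.00996). The single libraries held 6.18 in PEO4 (-1.28 ± 0.36, adjusted p = 0.0125) and 5.49 in PEO14 (-2.28 ± 0.36, adjusted p = 2.22e-05). No treated range reached the untreated one. At 8 h the fall was largest in PEO4, to 3.41 and 1.43 (-2.41 ± 0.29, adjusted p = 5.86e-08), and PEO1, to 7.66 and 3.71 (-1.74 ± 0.29, adjusted p = 1.93e-05). PEO14 (-0.91 ± 0.26, adjusted p = 0.00728) and PEA2 (-0.94 ± 0.29, adjusted p = 0.0252) fell less, and the PEA2 call was lost with the replicate block (adjusted p = 0.0791). PEA1 differed by -1.10 ± 0.36, adjusted p = 0.0691.

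IGF2 fell in the 3 lines of these 5 that held it. In PEO14 it went from 1185, 1740.4 and 864 TPM to 147, 209.8 and 191 at 8 h (-2.74 ± 0.43, adjusted p = 1.71e-05) and 159 at 24 h (-2.93 ± 0.61, adjusted p = 0.000484). In PEO4 it went from 43.9, 40.5 and 5.71 to 1.27 and 0.965 (-3.46 ± 0.49, adjusted p = 7.7e-07) and 1.01 (-3.53 ± 0.61, adjusted p = 0.000171). In PEA1 it went from 27.6 to 2.04, 1.31 and 2.91 (-3.24 ± 0.61, adjusted p = 0.00105) and 1.70, 1.74 and 5.33 (-2.99 ± 0.61, adjusted p = 0.00248). The ranges were separate in each line, and replicate 3 of untreated PEO4 lay far below the other 2. PEA2 and PEO1 were at or near 0 before and after drug. After treatment PEO14 still held at least 147 TPM of IGF2, more than any kept untreated library of the other 4 lines. Untreated PEA1 rests on 1 kept library here. Its set-aside replicate 2 listed 195 deposited TPM, but its set-aside replicate 3 listed far less, as given above for the untreated pairs.

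**Figure D3:**
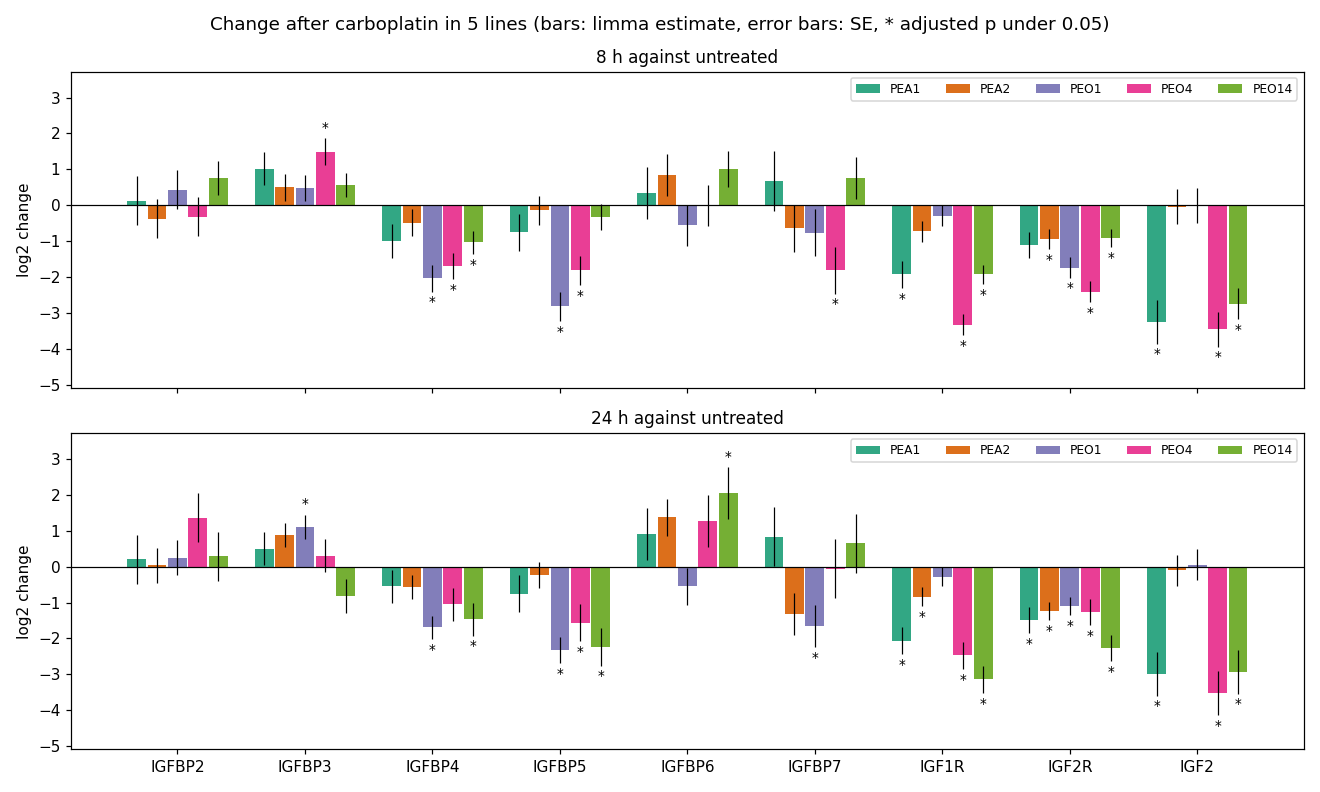
Bars give the log2 change of each gene after 8 h (top) and 24 h (bottom) of carboplatin against untreated cells in 5 lines, with error bars for the standard error and a star where the adjusted p is under 0.05. IGF1R, IGF2R, IGF2, IGFBP4, IGFBP5 and IGFBP7 point down wherever a star is drawn, and IGFBP3 and IGFBP6 carry the upward stars; stars of IGFBP3 and IGFBP5 in PEO1 and PEO4 rest on untreated values that helped to choose those genes.

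IGFBP5 stood lower under drug in PEO1 and PEO4, given as a description. In PEO1, the line with most IGFBP5, it went from 283, 490.0 and 159.6 TPM to 44.7 and 34.1 at 8 h and 45.8, 65.2 and 57.6 at 24 h, log2 changes of -2.82 and -2.32. In PEO4 it went from 2.06, 6.62 and 1.75 to 0.298 and 0 at 8 h and 0.358 at 24 h, changes of -1.81 and -1.56. Treated and untreated ranges were separate in both lines. In PEO14 the 8 h values of 8.46, 9.93 and 23.6 overlapped the untreated range (-0.33 ± 0.37, adjusted p = 0.558), and the 24 h library held 2.64 (-2.24 ± 0.52, adjusted p = 0.00127). PEA1 and PEA2 held too little IGFBP5 for a change to be seen.

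IGFBP4 fell at 8 h from 121, 189.7 and 72.2 to 25.9 and 30.4 TPM in PEO1 (-2.04 ± 0.37, adjusted p = 5.4e-05) and from 89, 116 and 50.8 to 26.6 and 22.2 in PEO4 (-1.69 ± 0.37, adjusted p = 0.000263). In PEO14 it fell from 298, 206 and 213 to 111, 94.6 and 143 (-1.04 ± 0.33, adjusted p = 0.0162). At 24 h it was lower in PEO1 at 44.2, 32.1 and 32.3 (-1.70 ± 0.33, adjusted p = 0.000165) and in PEO14 at 84.9 (-1.46 ± 0.46, adjusted p = 0.0139). Both PEO14 calls were lost with the replicate block (adjusted p = 0.207 and 0.053). PEA1 and PEA2 were not called at either time.

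IGFBP3 had no call in PEA1, PEA2 or PEO14, and its values in PEO4 and PEO1 are a description. In PEO4 it stood at 6.71, 1.62 and 1.44 TPM untreated and 16.3 and 5.13 at 8 h, a log2 change of 1.49, with overlapping ranges since untreated replicate 1 was higher than treated replicate 2. In PEO1 it went from 468, 731 and 815 to 1468, 1389 and 1376 at 24 h, a change of 1.11 with no overlap. Without rescaling these changes were 0.22 and 0.55, and that in PEO1 at 8 h went from 0.48 to -1.26. In PEO14 the 24 h library was lower, at 85.4 against 152, 146 and 153 (-0.81 ± 0.47, adjusted p = 0.184). PEA2 stood at 685, 599 and 588 at 24 h against 345, 422 and 263 untreated, all higher but not called (0.88 ± 0.33, adjusted p = 0.0648).

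IGFBP6 was called higher in PEO14 at 24 h, 29.9 TPM in the single library against 7.67, 7.04 and 5.02 (2.04 ± 0.73, adjusted p = 0.028). This was lost without rescaling (adjusted p = 0.492), and the set-aside PEO14 libraries listed 0 and 14.4 deposited TPM. IGFBP7 was listed at 0 in both PEO4 libraries at 8 h against 0, 4.29 and 7.09 untreated (adjusted p = 0.0206) and in all 3 PEO1 libraries at 24 h against 3.27, 0 and 6.37 (adjusted p = 0.0252), with an untreated library at 0 in each case. In PEA1, where IGFBP7 is abundant, it went from 324 to 565, 517 and 474 at 8 h (0.67 ± 0.83, adjusted p = 0.801) and did not pass. IGFBP2 was not called after carboplatin in any of the 5 lines. In PEO14 it stood at 89.5, 64.8 and 75.3 untreated and 128, 89.3 and 187 at 8 h (0.75 ± 0.48, adjusted p = 0.255), ranges that overlapped.

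With all 54 libraries 5 of the 17 calls at 8 h and 7 of the 20 at 24 h held. At 8 h these were IGF2 in PEA1, PEO4 and PEO14, IGF1R in PEO4 and IGFBP5 in PEO1. At 24 h they were IGF1R, IGF2R and IGF2 in PEO4, IGFBP5, IGF2R and IGF2 in PEO14 and IGFBP5 in PEO1, while IGF2R in PEO1 had adjusted p = 0.629. IGFBP5 in PEO1 is counted at both times but rests on untreated values that helped to choose the gene, so it is not read as support. The other calls of IGFBP3 and IGFBP5 in PEO1 and PEO4 did not hold with all 54 libraries. Leaving out replicate 1 of every group, which removes the untreated PEA1 library, ended the calls of IGF2R in PEA2 and IGFBP4 in PEO14 at 8 h (adjusted p = 0.0973 and 0.316) and of IGFBP7 in PEO1 and IGF1R in PEA2 at 24 h (0.164 and 0.268). Leaving out replicate 2 ended those of IGF2R in PEA2 (0.0516) and IGFBP7 in PEO4 (0.133) at 8 h and of IGF1R in PEA2 at 24 h (0.239). Leaving out replicate 3 ended those of IGF2R in PEA2 (0.403) and PEO14 (0.0678) and IGFBP7 in PEO4 (0.174) at 8 h, and of IGF2R in PEA1 (0.0791), IGFBP7 in PEO1 (0.282) and IGFBP6 in PEO14 (0.0541) at 24 h. Without rescaling IGF2R lost its call in PEA2 at 8 h too (0.0755), as it did with a pseudocount of 0.1 (0.0523). With the compared groups alone the calls lost at 8 h were those of IGFBP4 and IGF2R in PEO1 and of IGFBP4, IGFBP7 and IGF2 in PEO4, and at 24 h those of IGF1R, IGF2R and IGF2 in PEA1 and PEO4 and of IGFBP7 in PEO1. The calls of IGFBP3 and IGFBP5 in PEO1 and PEO4, which rest on values that helped to choose those genes, are left out of the lists of calls lost in the other settings.

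The receptor genes are long. IGF1R spans 316 kb and IGF2R 144 kb (GENCODE 29, GRCh38), IGFBP7 79.6 kb, IGFBP2 31.6 kb, IGFBP5 23.4 kb, IGFBP4 14.3 kb, IGFBP3 9.63 kb and IGFBP6 4.91 kb, and no span was available for IGF2. At 24 h the median change of all tested genes over 300 kb, 624 of them, was -0.41 in PEA1, -0.29 in PEA2, -0.55 in PEO1, -0.51 in PEO4 and -0.99 in PEO14. IGF1R changed by -2.06, -0.84, -0.28, -2.47 and -3.14 in the same lines, lower than that median in all except PEO1. For genes of 100 to 300 kb the medians were -0.30, -0.17, -0.22, -0.33 and -0.64, and IGF2R changed by -1.49, -1.24, -1.10, -1.28 and -2.28. IGFBP4 changed by -0.55, -0.57, -1.70, -1.05 and -1.46, and genes of 10 to 30 kb had medians of -0.08 to 0. Genes over 300 kb were called lower at 24 h in 21.2% of cases in PEA2 and 39.9% in PEO1. Those of 100 to 300 kb were called lower in 14.8% and 27.7%, where 12.5% and 22.9% of all tested genes were. The spans were looked at after the values were seen, and their part in the falls was not tested.

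**Figure D4:**
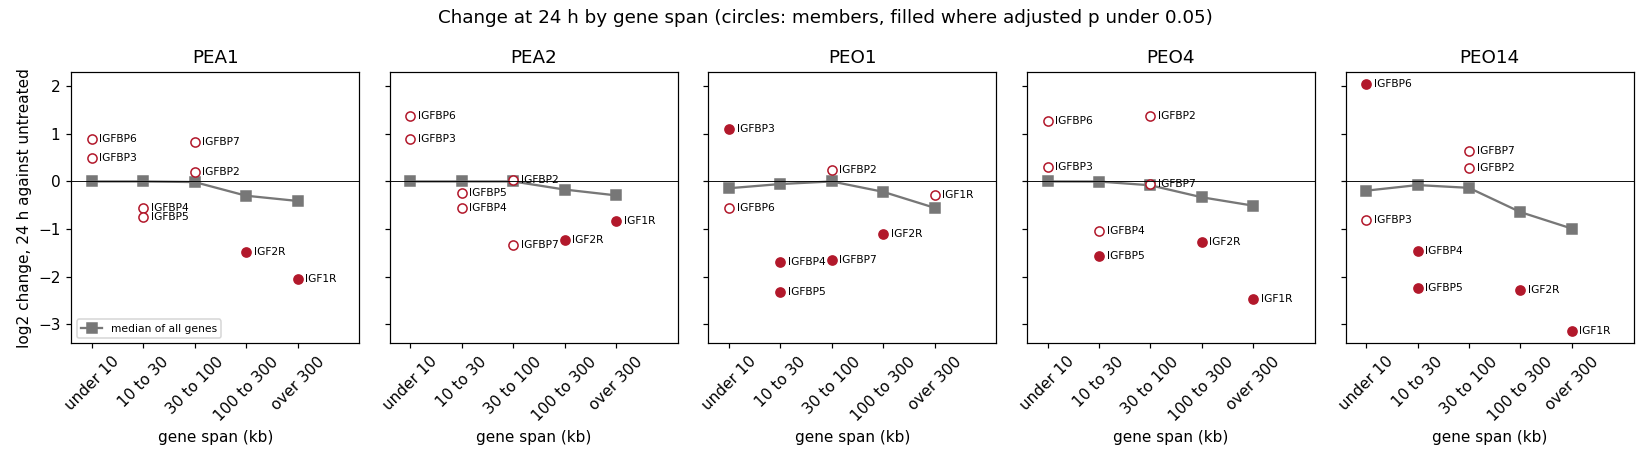
Each panel plots, for 1 line, the log2 change at 24 h of carboplatin against the gene's span in kb, with grey squares for the median of all tested genes in a span bin and circles for the 8 genes with a span, filled where the adjusted p is under 0.05. IGF1R and IGF2R lie below the squares of their bins in the lines where they are filled, and IGFBP3 and IGFBP6 lie above the square of the shortest bin in PEA1, PEA2 and PEO4.

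Between 8 h and 24 h of drug few of the 9 genes moved, and 4 differences were called over 6 lines. In PEO23, IGFBP3 fell from 159, 186 and 121 to 47.9, 54 and 27.2 TPM (-1.86 ± 0.33, adjusted p = 0.00473), with separate ranges, 1 of 9 genes where 0.394% of all genes were called. In PEO14, 2 of 9 were called (2.53% of all genes), IGFBP5 from 8.46, 9.93 and 23.6 to 2.64 (-1.91 ± 0.52, adjusted p = 0.0432) and IGF2R from 17.3, 14.5 and 15.4 to 5.49 (-1.37 ± 0.36, adjusted p = 0.039). In PEO4, IGF2R was higher at 24 h, 6.18 against 3.41 and 1.43 (1.13 ± 0.38, adjusted p = 0.0466), 1 of 9 where 14.1% were called. PEA1, PEA2 and PEO1 had 0 calls with limma, with 0, 0 and 1 gene at an unadjusted p under 0.05, where 0.0278%, 0% and 0.217% of all genes were called.

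The 8 h and 24 h cultures of a number shared their passage, and with these pairs as a block the PEO14 calls of IGFBP5 and IGF2R were lost (adjusted p = 0.267 and 0.244). Without rescaling all 4 calls were lost (adjusted p = 0.106 for IGF2R in PEO4, 0.0522 and 0.103 for IGFBP5 and IGF2R in PEO14, and 0.799 for IGFBP3 in PEO23), and 2 others, both higher, took their place. With all 54 libraries the difference of IGF2R in PEO4 turned to -0.16 and that of IGFBP3 in PEO23 was -1.84 with adjusted p = 1. Leaving out replicate 3 ended all 4 calls (adjusted p = 0.0844 for IGF2R in PEO4, 0.179 and 0.166 for IGFBP5 and IGF2R in PEO14 and 0.257 for IGFBP3 in PEO23), replicate 2 that of IGFBP5 in PEO14 (0.0621) and replicate 1 that of IGFBP3 in PEO23 (0.0828). All 4 were also lost with the compared groups alone, and that of IGFBP5 in PEO14 with a pseudocount of 0.1.

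Whether the change differed between the lines of a pair was tested directly for the pairs with untreated libraries. IGF1R fell more in PEO4 than in PEO1, by a difference of -3.04 ± 0.42, adjusted p = 3.89e-05 at 8 h and -2.19 ± 0.47, adjusted p = 0.0118 at 24 h. IGF2 likewise differed, with adjusted p = 0.00349 at 8 h and 0.0108 at 24 h. PEO1 stood at 0 for IGF2 and under 0.36 TPM for IGF1R without drug, at or near the floor of the scale. The test therefore cannot tell a different response from a different starting level. With a pseudocount of 0.1 in place of 1 the IGF1R differences were -2.29 and -1.29 and no longer passed (adjusted p = 0.0744 and 0.481), while those of IGF2 passed (adjusted p = 0.0118 and 0.0117). These were 2 of 9 genes at each time, where 2.35% and 1.38% of all genes were called. With all 54 libraries none of the 4 held (adjusted p = 1 and 0.403 for IGF1R, 0.68 and 0.115 for IGF2), and without replicate 1 none did either (adjusted p = 0.0722 for IGF1R and 0.27 for IGF2 at 8 h and 0.235 and 0.273 at 24 h). At 8 h without replicate 2 they were 0.0651 and 0.294. With the compared groups alone none of the 4 passed (adjusted p = 0.212 and 0.278 for IGF1R, 0.556 and 0.349 for IGF2).

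For IGFBP3 and IGFBP5 between PEO4 and PEO1 this difference contains the untreated values that helped to choose them, and its test is not given. In the PEA pair 0 of 9 genes were called by limma at either time, with 2 and 3 at an unadjusted p under 0.05, where 0.339% and 0.383% of all genes were called.

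The wider IGF pathway was followed through a list of 49 genes, of which 44 were tested. The other settings, such as all libraries or no rescaling, were read for the members only. The pathway and CCN calls below were not checked in them. At 8 h of carboplatin 5 of the 44 were called lower in PEA1, 4 in PEA2, 22 in PEO1, 21 in PEO4 and 15 in PEO14, where 5.29%, 10.7%, 24.5%, 32% and 21.1% of all tested genes were. Called higher were 1, 1, 2, 4 and 1 of the 44, where 0.605%, 3.51%, 17.4%, 21.6% and 8.88% of all genes were. At 24 h, 6, 8, 20, 6 and 20 of the 44 were called lower, where 5.22%, 12.5%, 22.9%, 12.7% and 22.7% of all genes were. The shares in PEA2 at 8 h and in PEO4 at 24 h were close to those of all genes. The median change of the list at 8 h was -0.28, -0.16, -0.81, -0.69 and -0.39 in these lines, and that of all tested genes was 0, -0.02, -0.15, -0.24 and -0.16. For the counts over 10 comparisons that follow, the share of all genes called that often was not taken. Single comparisons called 5.22% to 32% of all genes lower, and the 8 h and 24 h comparisons of a line share controls. IGFALS, the subunit that joins IGF and IGFBP3 in a stable complex, fell in 10 of 10 comparisons. In PEO4 it went from 64.8, 62.4 and 86.8 TPM to 0.470 and 2.20 at 8 h (-5.04 ± 0.41, adjusted p = 1.39e-10), and in PEO14 from 13.4, 9.27 and 12.7 to 0.227, 0.324 and 0 (-3.43 ± 0.37, adjusted p = 3.55e-08).

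PAPPA, the protease that cuts IGFBP4, also fell in 10 of 10 comparisons, by changes of -1.44 to -0.82, beside the fall of IGFBP4 in 3 lines at 8 h. KCNQ1OT1, a noncoding RNA of the imprinted domain next to IGF2, fell in 10 of 10, and AIRN, the antisense RNA that overlaps IGF2R, in 8 of 10. As AIRN overlaps IGF2R, reads of these genes may not be told apart. IGF2BP2, which binds IGF2 mRNA, fell in 9 of 10. Among downstream genes, the insulin receptor substrate IRS1 fell in 4 of 10, for example from 14.6, 20.5 and 10.1 to 2.46 and 1.05 TPM in PEO1 at 8 h (-2.54 ± 0.41, adjusted p = 1.62e-05), and the insulin receptor INSR in 4 of 10. Counts of 4 of 10 are not read as differing from those of all genes. IGF1 was scarce, and in PEO1 it went from 7.93, 3.96 and 3.07 to 0 in every treated library (adjusted p = 1.63e-05 at 8 h and 4.46e-06 at 24 h). IGFBP1, the neighbour of IGFBP3 on chromosome 7, never exceeded 2.73 TPM in a kept library.

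The CCN family, matricellular proteins with an IGFBP-like domain, numbered 6 tested genes. CYR61 (CCN1) fell in 9 of 10 comparisons and CTGF (CCN2) in 4 of 10. At 8 h the family had 1 of 6 genes called lower in PEA1, 1 in PEA2, 3 in PEO1, 4 in PEO4 and 3 in PEO14, beside 5.29%, 10.7%, 24.5%, 32% and 21.1% of all genes, and 1 called higher in PEO1, beside 17.4%. With 6 genes these counts are not read as differing from those of all genes.

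Between lines under drug the pathway genes with the largest differences had different signs in different pairs. IRS1 was lower in PEA2 than in PEA1 at 8 h, at 0.496 and 0.405 against 19.9, 23.3 and 21.4 TPM (-3.96 ± 0.41, adjusted p = 1.16e-08), the same sign as IGF1R. PAPPA (2.20 ± 0.31, adjusted p = 2.43e-06) and ADAM12 (3.08 ± 0.45, adjusted p = 4.72e-06), proteases of binding proteins, were higher in PEA2, where IGFBP3 was higher as well. The matrix metalloprotease MMP7, from the same protease group, was lower in PEA2 (-2.61 ± 0.60, adjusted p = 0.00186). In PEO4 IRS1 was higher than in PEO1 (1.90 ± 0.45, adjusted p = 0.00475), like IGF1R, and MMP7 was lower (-4.18 ± 0.65, adjusted p = 3.51e-05), like IGFBP3. The protease HTRA1 was higher in PEO4 (1.85 ± 0.49, adjusted p = 0.0117). In PEO23 IRS1 was lower than in PEO14 (-2.34 ± 0.37, adjusted p = 3.18e-05), CTGF was lower (-3.93 ± 0.43, adjusted p = 9.71e-08) and MMP7 higher (3.14 ± 0.53, adjusted p = 8.87e-05). Of the 44 genes at 8 h, PEA2 had 10 higher and 6 lower than its partner, where 16.2% of all genes were called in either direction. PEO4 had 4 higher and 4 lower (9.91% of all genes), and PEO23 had 4 higher and 9 lower (14.8%).

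Across the 17 group means the 9 genes did not follow a common pattern. As a description over groups that share lines and scaling, Pearson's r was 0.768 between IGFBP2 and IGF2, 0.643 between IGFBP4 and IGFBP5, -0.698 between IGFBP3 and IGF1R and -0.702 between IGFBP6 and IGFBP7. The neighbours IGFBP2 and IGFBP5 had r = 0.0672, and the receptors IGF1R and IGF2R 0.326. Of all tested genes, those most like IGF2 were TMEM130 (r = 0.963), IGF2BP1 (0.948) and EBF3 (0.945). IGF2BP1, an IGF2 mRNA binding protein, stood at 53.3, 61.9 and 48.8 TPM in untreated PEO14 and 21.3, 30.1 and 23.4 in PEO23 at 8 h, and at most 3.02 in the other lines. Most like IGFBP3 were UPP1 (0.903), CLIC4 (0.893) and OPA1 (0.887). Most like IGFBP5 were SLC22A3 (0.939), SHC3 (0.936) and XYLT1 (0.917). Most like IGFBP2 were ZNF224 (0.957), FAM110B (0.948) and CKB (0.944), and most like IGFBP7 were PAPSS2 (0.934), SHPK (0.928) and RHOBTB1 (0.922). For IGFBP4 they were SOX11 (0.958), DGCR5 (0.933) and FHDC1 (0.926), and for IGFBP6 GPR27 (0.943), CMPK2 (0.941) and JDP2 (0.927). IGF1R was matched less closely, by SCARF2 (0.883), NCOA2 (0.873) and TEX22 (0.872), and IGF2R more closely, by FOXK1 (0.967), MIA3 (0.955) and TMEM184B (0.951).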

How the data were processed

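The authors deposited 1 table of TPM for 25435 genes, with no counts, so depth is unknown and no counting error is given; the table's name points to RSEM. Per the labels, libraries came from a stranded total RNA kit. The submitters' processing notes name bcl2fastq 2.18 and build hg19. Aligner, annotation and strand setting: not given in the sources used here. The labels give the dose in µM, the series text in mM, and the control as untreated and as vehicle.

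TPM of the 42 libraries that listed at least 12000 genes above 0 were rescaled by the median ratio over 8287 genes. The 18013 genes that reached TPM of 1 in 3 or more libraries were tested on log2(rescaled TPM + 1) with limma 3.58.1 (R 4.3.3), with 1 fit of 17 groups, a mean-variance trend and 25 residual degrees of freedom, giving 26 comparisons. The code was tested on simulated data. Alternatives were all 54 libraries (18262 genes, scaling over 392), no rescaling, a pseudocount of 0.1, no filter, the compared groups alone, a replicate block and leaving out each replicate. Their results were read for the members only. By passage, 8 h and 24 h cultures with a number were paired in 18 of 18 cases. Where all 6 libraries of a line were kept (PEA1 and PEO23), paired deviations from group means correlated at -0.126 to 0.41.

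The members, lists and library selection were chosen with earlier results of these data known. Named were all 9 members, some of the 4 called pathway or CCN genes with the largest change per comparison, and the 3 genes most correlated with each member. Which of those pathway and CCN genes to name was chosen after their values were seen. IGFBP1, INSR, PAPPA, IGF2BP2, IGF2BP1 and CYR61 were also named after their values were seen. Per the file, 28 symbols had been turned into dates. Promoters and spans (RefSeq GRCh38.p14, GENCODE 29) served as annotation only.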

Additional observations from a re-analysis of the deposited data

Results flagged for a closer look

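In the main setting the difference in treatment change between PEO4 and PEO1 passed a test of the difference itself for IGF1R and IGF2. None of these differences held with all 54 libraries, without replicate 1 or with the compared groups alone. The fitted log2 change of IGF1R in PEO4 minus that in PEO1 was -3.04 at 8 h and -2.19 at 24 h. For IGF2 it was -3.46 at 8 h and -3.59 at 24 h. Untreated PEO1 was listed at 0 for IGF2 in all 3 libraries and at 0.178 to 0.359 TPM for IGF1R, against 5.71 to 43.9 and 19.2 to 54.9 TPM in PEO4, so the values for both genes depend on the constant added before taking logs and are no measure of a difference in proportion. IGF2 could not fall from 0 in PEO1, and its 8 h difference of -3.46 equals the change within PEO4. The test therefore cannot tell a different response from a different starting level. With 0.1 in place of 1 the IGF1R differences were -2.29 at 8 h and -1.29 at 24 h and did not pass with limma (adjusted p = 0.0744 and 0.481). Those of IGF2 were -4.17 and -4.68 and passed (adjusted p = 0.0118 and 0.0117).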

How the results depend on the processing

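Of 70 calls of the 9 genes over 26 comparisons, 13 held in every setting run, 25 with all 54 libraries, 55 without rescaling, 63 with a pseudocount of 0.1, 70 with no filter on low values, 36 with the compared groups alone and 61 with the replicate block, and 39 in every run that left out a replicate number. With all 54 libraries the calls were 5 between lines at 8 h, 6 between lines at 24 h, 5 for 8 h and 7 for 24 h against untreated, 2 for 24 h against 8 h and 0 for differences of change, and the difference of IGF2R in PEO4 between 24 h and 8 h reversed to -0.16. Without rescaling there were 2 calls for 24 h against 8 h, and a pseudocount of 0.1 left 2 differences of change. With the compared groups alone there were 7 calls between lines at 8 h, 1 for 24 h against 8 h and 1 difference of change. Leaving out a replicate number gave 7 to 12 calls between lines at 8 h, 5 to 12 at 24 h, 13 to 16 for 8 h and 7 to 18 for 24 h against untreated, 0 to 2 for 24 h against 8 h and 0 to 6 differences of change, over fewer comparisons where a group lost its only library. With the replicate block the counts were 13, 11, 16, 20, 3 and 4 in the same order. Without rescaling the split of higher and lower calls was 0 and 19 for 8 h against untreated, 0 and 18 for 24 h against untreated and 2 and 0 for 24 h against 8 h, against 1 and 16, 2 and 18 and 1 and 3 with it. TPM keep no depth, so values near 0 have no stated limit of detection, and 3 groups rest on 1 library. The main calls against untreated include 3 at each time that rest on untreated values that helped to choose IGFBP3 and IGFBP5. The calls between PEO4 and PEO1 include both genes too, whose difference between these lines was already known. The cause of these losses was not tested, except that fewer libraries leave fewer comparisons.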
